A study of Homo sapiens with 36 samples.

Results

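The baseline miRNA repertoires of 2 human colorectal adenocarcinoma lines, Caco-2 and HT-29, were compared in the 6 untreated miRNA libraries of a series of 36 libraries. The members were chosen by their labels alone, as 3 untreated Caco-2 and 3 untreated HT-29 libraries, and no measured value entered the choice. Caco-2 cells had been left to differentiate for 21 days in Eagle's minimum essential medium, and HT-29 cells were grown in McCoy's 5A medium with a smaller share of fetal bovine serum, for a time that the labels do not state. Both groups carried the label of no treatment, and their medium held dimethyl sulfoxide at 0.5 µl per ml, the solvent of the treated groups. The remaining miRNA libraries of these lines had been exposed for 24 h to CoCl2 at 300 µM or to OD, an oxyquinoline derivative, at 5 µM. Each group is 1 established line, so the line, its differentiation state, its medium and its serum cannot be told apart in any difference between the groups. The series' design text calls the 3 libraries of a group biological replicates.

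MiRNAs are short RNAs that Argonaute proteins hold and use to find partly complementary messenger RNAs, which are then repressed. A primary transcript is cut to a hairpin by DROSHA with DGCR8 and then by DICER1 to a duplex, from which the 5p or the 3p arm can be kept. Target choice depends mainly on the seed, bases 2 to 8 of the mature miRNA, so that miRNAs with a shared seed form a family. Several families are tied to cell identity: miR-192, miR-194 and miR-215 to the differentiated gut epithelium, let-7 to the exit from the embryonic state, the miR-302 and miR-371 to miR-373 clusters to pluripotent cells, and the miR-200 family to epithelial cells.

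Sequences of leading miRNAs of each line, with related members, are given first. They are RefSeq mature sequences on GRCh38.p14, written 5′ to 3′ with the seed in capitals. The first set holds abundant miRNAs of Caco-2 that stood far lower in HT-29, with less abundant members of the miR-371 to miR-373 and miR-302 clusters. MiR-192-5p and miR-215-5p share a seed, and so do miR-372-3p, miR-373-3p and the miR-302 members.
miR-192-5p: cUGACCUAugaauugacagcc
miR-215-5p: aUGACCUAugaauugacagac
miR-194-5p: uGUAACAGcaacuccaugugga
miR-148a-3p: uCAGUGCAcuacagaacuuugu
miR-372-3p: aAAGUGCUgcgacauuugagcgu
miR-373-3p: gAAGUGCUucgauuuuggggugu
miR-302b-3p: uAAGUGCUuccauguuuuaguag
miR-371a-5p: aCUCAAACugugggggcacu

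The second set holds miRNAs that led the HT-29 libraries, miRNAs that were higher there and members of their families. Let-7g-5p and miR-200c-3p were not themselves higher in HT-29 and are given for their families. The let-7 members share 1 seed, while the miR-200 family has 2 seeds that differ at 1 base.
miR-10a-5p: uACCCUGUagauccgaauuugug
miR-7-5p: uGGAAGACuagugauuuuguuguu
let-7b-5p: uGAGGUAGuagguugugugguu
let-7i-5p: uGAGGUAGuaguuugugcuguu
let-7g-5p: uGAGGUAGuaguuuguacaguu
miR-200a-3p: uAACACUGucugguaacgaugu
miR-200b-3p: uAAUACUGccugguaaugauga
miR-429: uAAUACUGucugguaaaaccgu
miR-200c-3p: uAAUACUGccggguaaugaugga
miR-31-5p: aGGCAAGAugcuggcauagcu

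Depth differed between the libraries. Total counts were 5923276, 7287274 and 763531 in Caco-2 replicates 1, 2 and 3, and 9580744, 13092513 and 8860459 in HT-29. Caco-2 replicate 3 therefore had a floor of 3.93 CPM for 3 counts (CPM are counts-per-million values), against 0.229 to 0.506 in the other 5 libraries, and intervals and floors cover counting error only. Log2 CPM of the tested miRNAs correlated between replicates with r from 0.9855 to 0.9939 in Caco-2 and from 0.9957 to 0.998 in HT-29, and between lines with r from 0.7952 to 0.809, a description across 631 miRNAs that are not independent. No pair of libraries differed by as little as counting error.

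The 2 lines differed in most of their miRNAs. Of 2656 miRNAs in the table, 631 had enough counts to be tested, and 407 of these (64.5%) passed a false discovery rate (FDR) of 0.05 in edgeR's quasi-likelihood test with a change of more than 2-fold, which is what called means. Of the 407, 195 (30.9% of those tested) were higher in Caco-2 and 212 (33.6%) were higher in HT-29. The changes were large beside their standard errors (SE), with a median absolute log2 fold change of 1.45 and a median SE of 0.265. Of the called miRNAs, 147 differed by more than 8-fold. These counts are relative to the scaling of the libraries. The main factors are TMM, the trimmed mean of M values, over the 6 libraries. A fit of all 18 miRNA libraries, which changes the factors, the count filter and the estimate of spread together, moved the median log2 fold change of the tested miRNAs from -0.11 to 0.31 and the share of calls that were higher in Caco-2 from 47.9% to 60.6%. Scaling by library size alone moved that median to -0.56.

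In the share of all counts, the called miRNAs made up most of each library. The 195 miRNAs higher in Caco-2 took 64.7%, 62.6% and 62.0% of the counts in the Caco-2 libraries and 11.19%, 11.03% and 11.42% in the HT-29 libraries. Conversely, the 212 miRNAs higher in HT-29 took 7.24%, 8.18% and 8.29% of the Caco-2 counts and 51.3%, 52.7% and 50.6% of the HT-29 counts. The shallow Caco-2 replicate 3 lay within or next to the range of its replicates in both shares.

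**Figure D1:**
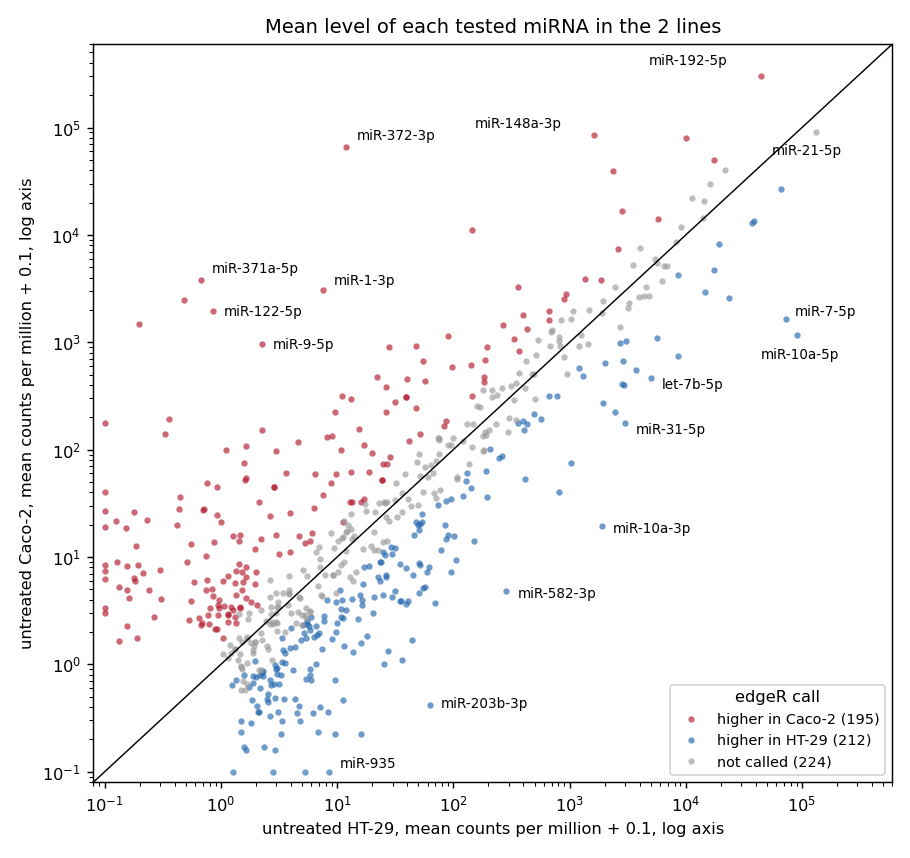
Mean CPM plus 0.1 of the 631 tested miRNAs in 3 untreated HT-29 libraries (x, log axis) and 3 untreated Caco-2 libraries (y, log axis), coloured by the edgeR call. The line marks equal levels, and products of the miR-371a to miR-373 cluster and miR-122-5p lie far above it, while miR-10a, miR-582-3p and miR-203b-3p lie far below.

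Caco-2 was dominated by miR-192-5p. Its level was 317660, 336710 and 251110 CPM in the 3 Caco-2 libraries and 37045, 53838 and 42409 CPM in HT-29, a log2 fold change of 2.76 ± 0.21 (SE, FDR = 9.99e-14). Of all counts, this single miRNA took 26.2% on average in Caco-2 and 5.04% in HT-29, where it was still the fifth most abundant. Every Caco-2 value lay above the highest HT-29 value.

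MiR-194-5p, which shares transcripts with miR-192 and miR-215, held 75544, 89619 and 73457 CPM in Caco-2 and 10734, 8562 and 10768 CPM in HT-29 (log2 fold change 2.99 ± 0.20, FDR = 4.27e-15). For miR-215-5p the levels were 41363, 45235 and 31297 CPM against 1961, 2840 and 2228 CPM (4.07 ± 0.22, FDR = 1.37e-17). All 3 miRNAs of the list of intestinal differentiation miRNAs were therefore higher in Caco-2, beside 30.9% of all tested miRNAs. The groups did not overlap for any of the 3, as for 508 of the 631 tested miRNAs. They come from 2 clusters. MiR-192-5p lies at chr11:64891203-64891223 on the minus strand, in an exon of the long non-coding RNA MIR194-2HG, beside 1 copy of miR-194, and miR-215-5p lies at chr1:220117916-220117936 on the minus strand beside the other.

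The third miRNA of Caco-2 was miR-148a-3p, at chr7:25949922-25949943 on the minus strand in an intron of a long non-coding RNA. It stood at 105900, 86095 and 64569 CPM in Caco-2 and at 1222, 2239 and 1422 CPM in HT-29 (log2 fold change 5.72 ± 0.26, FDR = 2.36e-19). Its seed is shared by miR-148b-3p and miR-152-3p, whose log2 fold changes were -0.58 and 0.73 and were not called. Of the counts with this seed, 97.3% were miR-148a-3p in Caco-2 and 32.6% in HT-29.

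HT-29 was led by miR-21-5p, a miRNA that is abundant in many tumours. It stood at 116640, 153170 and 129880 CPM in HT-29 and at 100970, 96025 and 76620 CPM in Caco-2, where it was the second most abundant. The difference of -0.55 ± 0.19 passed the FDR threshold (FDR = 0.0100) and did not reach 2-fold, so miR-21-5p was among the 224 miRNAs not called.

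The next 2 in HT-29 were far lower in Caco-2. MiR-10a-5p, which lies among the HOXB genes at chr17:48579904-48579926 on the minus strand, within an intron of HOXB3 and an exon of a long non-coding RNA, held 75626, 107390 and 87202 CPM in HT-29 and 1244, 1110 and 1121 CPM in Caco-2 (log2 fold change -6.28 ± 0.24, FDR = 8.60e-22). MiR-7-5p held 61308, 90857 and 66099 CPM in HT-29 and 1713, 1582 and 1610 CPM in Caco-2 (-5.48 ± 0.23, FDR = 2.02e-20). They ranked 2 and 3 in HT-29 and 67 and 57 in Caco-2. The opposite arm, miR-10a-3p, moved with its partner, at 1957, 1779 and 1939 CPM in HT-29 against 22.73, 16.96 and 18.02 CPM in Caco-2.

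**Figure D2:**
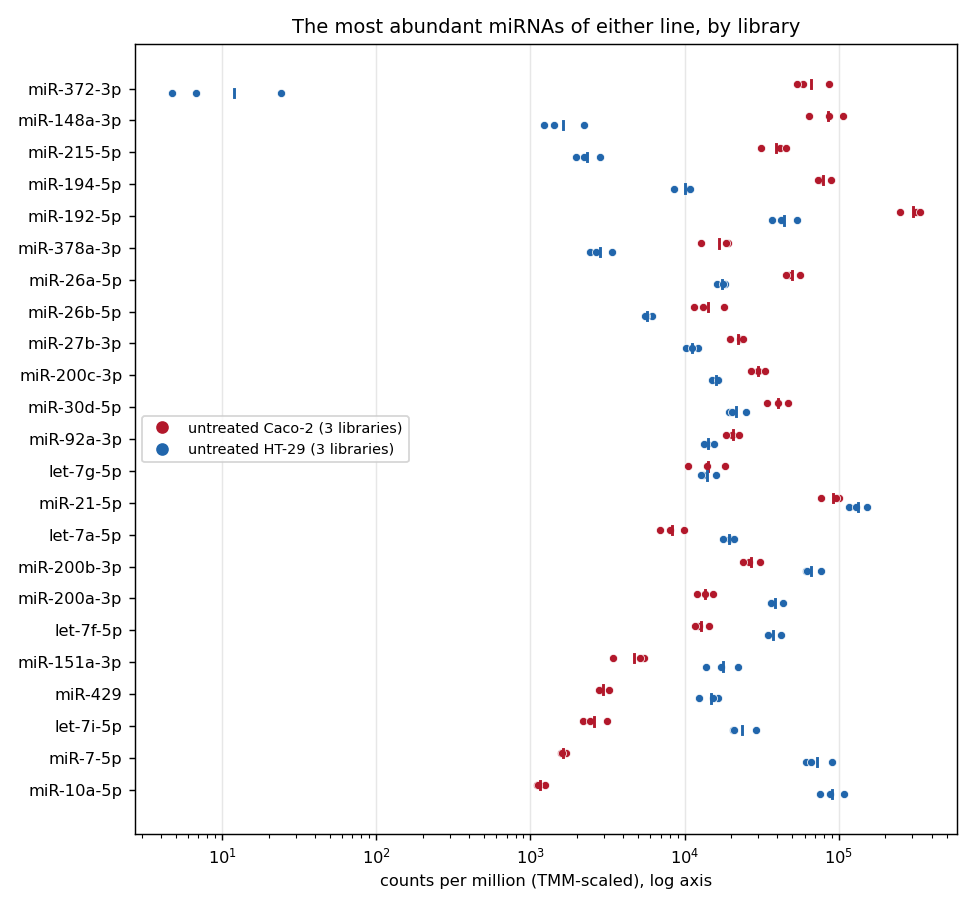
CPM (log axis) of the 23 miRNAs that were among the 15 most abundant of either line, with 1 point per library and a bar at the mean of each group of 3. The groups overlap only for let-7g-5p, and miR-372-3p shows the widest gap, from at most 24.1 CPM in HT-29 to at least 53605 CPM in Caco-2.

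The widest differences belonged to the miR-371 to miR-373 cluster at chr19:53787680-53788770 on the plus strand, whose products are known from pluripotent and germ cells. MiR-372-3p, the fifth most abundant miRNA of Caco-2, stood at 86267, 58559 and 53605 CPM there and at 6.72, 24.1 and 4.76 CPM in HT-29 (log2 fold change 12.42 ± 0.48, FDR = 1.99e-21). MiR-371a-5p stood at 4223, 3851 and 3365 CPM against 0.340, 1.11 and 0.285 CPM (12.58 ± 0.34, FDR = 4.32e-25). Both arms of all 3 hairpins were tested, and all 6 products were higher in Caco-2. HT-29 replicate 2, the deepest library, held the most counts of 4 of them, with 79, 326 and 50 counts of miR-372-3p, 4, 15 and 3 of miR-371a-5p, 0, 14 and 1 of miR-373-3p and 0, 4 and 0 of miR-371a-3p in replicates 1, 2 and 3. Without that library the log2 fold changes were 13.59, 13.60, 15.36 and 16.38, against 12.42, 12.58, 12.49 and 13.52 with it. The passenger arms miR-372-5p and miR-373-5p had no count in HT-29 and were at least 2255-fold and 487-fold higher in Caco-2, set against 3 counts over the HT-29 group.

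The other pluripotency cluster moved the same way at far lower levels. MiR-302b-3p stood at 21.8 ± 11.2 CPM (SD, n = 3) in Caco-2 and had 5 counts over the 3 HT-29 libraries (7.26, and 7.85 without HT-29 replicate 2), and miR-302a-3p, at 6.17 ± 3.05 CPM, had none there. Of the 8 listed embryonic stem cell miRNAs, 7 were tested and all 7 were higher in Caco-2, with a median log2 fold change of 8.76, or 7.48 when the members with no HT-29 count were set at their bound. The median over all 631 miRNAs was -0.11, and 30.9% of them were higher in Caco-2. The eighth, miR-367-3p, had at most 3 counts in a library. Summed over the 7, these miRNAs reached 59330 to 93140 CPM in Caco-2 and 5.14 to 26.5 CPM in HT-29.

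Among the 10 miRNAs with the largest rise in Caco-2, taken from called miRNAs with a mean of at least 50 counts, after the chromosome 19 cluster, were products of quite different tissues. MiR-122-5p, the dominant miRNA of hepatocytes, held 2401, 1986 and 1485 CPM in Caco-2 and 0.511, 1.18 and 0.571 CPM in HT-29 (11.27 ± 0.33, FDR = 1.71e-24, and 11.88 without HT-29 replicate 2). MiR-133a-3p, a muscle miRNA, held 231, 197 and 156 CPM against 0.170, 0.222 and 0.381 CPM (9.52 ± 0.33). For miR-9-3p, from a hairpin expressed in the nervous system, the levels were 141, 164 and 115 CPM against 0.170, 0.518 and 0 CPM (9.06 ± 0.37, and 10.45 without HT-29 replicate 2). MiR-618 had no count in HT-29 and was at least 321-fold higher in Caco-2. All of these had HT-29 levels of about 1 CPM or less.

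The 10 miRNAs with the largest rise in HT-29 included both arms of miR-10a, miR-7-5p and both arms of miR-582. MiR-582-3p stood at 229, 380 and 250 CPM in HT-29 and at 5.12, 2.60 and 6.44 CPM in Caco-2 (-6.14 ± 0.31, FDR = 1.80e-18). MiR-203b-3p stood at 49.7, 77.9 and 59.9 CPM in HT-29 and had 3, 2 and 0 counts in Caco-2, a pooled ratio of 145 with a counting interval from 62.0 to 447 (95%, exact). The lymphocyte miRNA miR-150-5p had 2 counts over the Caco-2 libraries and 565 over HT-29, a ratio of 90.4 with an interval from 24.9 to 748. MiR-935, at 9.02, 7.48 and 8.85 CPM in HT-29, had no count in Caco-2 and was at least 31.99-fold higher in HT-29. MiR-196a-1-3p had 2 counts in Caco-2 against 336, and miR-4664-3p had a log2 fold change of -4.47. The Caco-2 libraries held fewer counts than the HT-29 libraries, so the ratios in this direction are bounded less closely.

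Epithelial miRNAs were abundant in both lines, with a different balance between their 2 clusters. The chromosome 1 cluster of the miR-200 family was higher in HT-29, with miR-200b-3p at 61209, 76299 and 62028 CPM against 26197, 31048 and 23753 CPM in Caco-2 (-1.30 ± 0.19, FDR = 2.52e-07). MiR-200a-3p changed by -1.51 and miR-429 by -2.33. The chromosome 12 cluster pointed the other way, with log2 fold changes of 0.91 for miR-200c-3p and 0.86 for miR-141-3p that did not reach 2-fold. In the fit of all 18 libraries, miR-200c-3p and miR-141-3p were called higher in Caco-2 (1.35 and 1.30) and miR-200b-3p was no longer called (-0.87). Summed by seed, miR-200b-3p, miR-200c-3p and miR-429 together changed by -0.85 ± 0.17 and were not called, while miR-200a-3p with miR-141-3p changed by -1.52 ± 0.17 and were called higher in HT-29. The seed sums were filtered and scaled on their own, so these values are not on the scale of the single miRNAs. The median log2 fold change was -0.49 over all tested seeds and -0.11 over all tested miRNAs.

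The let-7 family, whose members restrain growth and are kept low in stem cells, was lower in Caco-2. Of its 9 members, 8 were higher in HT-29 and 1, let-7g-5p, was not called, with a median log2 fold change of -2.79. Of all tested miRNAs, 33.6% were higher in HT-29. Let-7i-5p stood at 2183, 3154 and 2426 CPM in Caco-2 and at 20729, 29098 and 20786 CPM in HT-29 (-3.18 ± 0.21, FDR = 3.12e-15). Let-7b-5p showed the largest difference, with 464 ± 43.2 CPM against 5017 ± 81.8 CPM (-3.44 ± 0.19). In contrast, let-7g-5p overlapped between the lines at 10506, 18301 and 14021 CPM against 13169, 16027 and 12681 CPM. In Caco-2 it ranked 14, ahead of let-7f-5p at rank 17, whose range it overlapped. Summed over the 9 members, the family reached 33760 to 47850 CPM in Caco-2 and 99070 to 121800 CPM in HT-29. In the fit of all 18 libraries, 6 of the 9 were called, all higher in HT-29, and let-7a-5p (-0.80) and let-7c-5p (-0.87) were not.

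Genes that act on let-7 were measured in the 6 untreated mRNA libraries of the same lines, in which 45.2% of 16391 genes were called, 24.2% higher in Caco-2 and 21% higher in HT-29. LIN28B, which binds let-7 precursors and blocks their maturation, had 82, 65 and 80 counts in Caco-2 and none in HT-29, at least 93.9-fold higher in Caco-2. It was the single called gene among the 4 tested in this list, while LIN28A was too low to be tested. The uridylyl transferases TUT4 and TUT7 changed by 0.95 and -0.87, and the exonuclease DIS3L2 by -0.46, all under 2-fold.

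In the silencing machinery, AGO2, the Argonaute that can cleave its targets, was higher in HT-29, at 458, 455 and 471 CPM against 82.7, 77.9 and 71.8 CPM in Caco-2 (log2 fold change -2.57 ± 0.06, FDR = 1.28e-29). AGO4 also passed both thresholds at -1.03, though not without Caco-2 replicate 2 (-0.99), and the other 5 genes of the Argonaute and silencing list were not called. Of the 6 processing genes, only DGCR8 was called, at -1.0015 ± 0.06 and thus at the limit, and its value of -0.99 under DESeq2 did not pass, nor did those without Caco-2 replicate 2 (-0.9961), Caco-2 replicate 3 (-0.96) or HT-29 replicate 2 (-0.99). DICER1 was higher in Caco-2 by 0.93 and DROSHA lower by 0.60 on the log2 scale, both under the fold threshold.

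The mRNA libraries were also used to check the lines against cell type markers. Of 12 enterocyte markers, 11 were tested, and 10 were higher in Caco-2 and 1, SLC5A1, was higher in HT-29. Over all tested genes these shares were 24.2% and 21%. Apolipoprotein B, which enterocytes and hepatocytes secrete, reached 4463, 4410 and 4435 CPM in Caco-2 and had 2, 0 and 0 counts in HT-29. The intestinal regulators CDX2 (log2 fold change 3.52) and HNF4A (2.57) were higher in Caco-2. Of the colonocyte and goblet list, 5 of 7 tested genes were higher in Caco-2 and 2 in HT-29, namely the mucins MUC2 (-5.97) and MUC5AC (-5.57). Of the 5, CEACAM5 (1.06) was not called without HT-29 replicate 2 (0.99). Among 8 epithelial markers, 4 were higher in Caco-2 and 3, KRT8, KRT18 and KRT20, in HT-29, and EPCAM was not called. The stromal and blood markers summed to 77.6 to 79.9 CPM in Caco-2 and 1271 to 1321 CPM in HT-29, where LYZ alone, a lysozyme gene that gut epithelium also uses, stood at 1266 to 1317 CPM. Of the 11 genes in that list, 6 were tested and 5 were higher in Caco-2. These were COL1A1 (log2 fold change 4.10), PECAM1 (2.38), VWF (3.67), VIM (2.31) and PDGFRA (at least 160-fold). Their mean levels in Caco-2 were 28.3, 9.98, 1.10, 1.89 and 9.37 CPM in that order. PTPRC, the leukocyte marker, was at 0 in all Caco-2 libraries and averaged 0.0551 CPM in HT-29.

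Several miRNAs known from other tissues were measured in both lines. All 6 tested smooth muscle and stromal miRNAs, of 8 listed, were higher in Caco-2, beside 30.9% of all tested miRNAs. Their median log2 fold change was 4.31, with a summed level of 3701 to 4930 CPM against 99.8 to 104 CPM. MiR-1-3p, a heart and skeletal muscle miRNA, made up most of that sum at 3299, 3280 and 2619 CPM against 5.45, 7.92 and 8.85 CPM. The endothelial miR-126-3p followed at 1147 ± 245 CPM against 89.3 ± 2.3 CPM. MiR-143-3p, the main smooth muscle miRNA, was low in both lines, at 20.9 and 0.904 CPM, and miR-145-5p had at most 2 counts in a library. MiR-199a-3p has the same sequence as miR-199b-3p and the same counts in every library, so the 2 cannot be told apart.

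Among 9 blood cell miRNAs, 8 were tested, of which 5 were higher in Caco-2 and 3 in HT-29. Over all tested miRNAs these shares were 30.9% and 33.6%. Of the 5, miR-155-5p (1.13), was not called with library size alone (0.72) or when every miRNA with a count was tested (0.62). The erythroid miR-451a stood at 28.0 ± 6.6 CPM in Caco-2 and 0.332 ± 0.043 CPM in HT-29, and its cluster partner miR-144-3p at 4.79 and 0.141 CPM. MiR-146a-5p, an immune-response miRNA, stood at 922 ± 96.4 CPM and 48.0 ± 0.8 CPM. The hematopoietic miR-142-3p went the other way, at 14.7 CPM in Caco-2 and 86.4 CPM in HT-29. MiR-223-3p, which marks myeloid cells, had no count in any of the 6 libraries.

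The liver and endoderm list had 6 members, of which 3 were tested. These, miR-122-5p, miR-483-3p and miR-483-5p, were all higher in Caco-2, beside 30.9% of all tested miRNAs. Of the endocrine and neural list, 4 of 5 were tested and split evenly. MiR-9-5p (8.78) and miR-218-5p (5.49, and 6.36 without HT-29 replicate 1) were higher in Caco-2. MiR-7-5p and miR-375-3p, both typical of endocrine cells, were higher in HT-29, with miR-375-3p at 2474 ± 378 CPM against 225 ± 17.4 CPM.

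MiRNAs that are often followed in colorectal tumours differed less uniformly. Of the 5 listed, miR-31-5p, in an intron of MIR31HG at chr9:21512158-21512178 on the minus strand, stood at 3496, 2491 and 3027 CPM in HT-29 and at 167, 210 and 157 CPM in Caco-2 (-4.06 ± 0.21, FDR = 4.45e-18). MiR-135b-5p was also called higher in HT-29 (-1.17), with -0.9994 and no call without Caco-2 replicate 3, and miR-21-5p, miR-224-5p and miR-20a-5p were not called. The hypoxia-responsive miR-210-3p was higher in Caco-2 at this untreated baseline, at 1063 ± 79.9 CPM against 335 ± 15.8 CPM (1.67 ± 0.18, FDR = 5.65e-10). MiR-34a-5p, a p53 target, was higher in Caco-2 (2.96), and miR-449c-5p, the only other tested member of its list of 6, was higher in HT-29 (-1.09) with 21 counts over Caco-2. That last call was lost without Caco-2 replicate 2 (-0.80) or HT-29 replicate 2 (-0.95).

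MiRNAs from the Hox clusters separated by paralog. MiR-10a-5p and miR-196b-5p (-3.72) were higher in HT-29 and miR-615-3p (-1.07) just passed, though not without HT-29 replicate 1 (-0.88) or replicate 2 (-0.98), while miR-10b-5p (0.50) and miR-196a-5p (0.34) were not called. The 3 clusters of miR-99, miR-100, let-7 and miR-125 also differed. From the chromosome 19 cluster, miR-99b-5p (-3.53) and miR-125a-5p (-2.35) were higher in HT-29. From chromosomes 21 and 11, miR-99a-5p (5.09) and miR-100-5p (3.30) were higher in Caco-2, at the lower levels of 96.5 and 23.9 CPM, while their neighbours let-7c-5p (-1.29) and let-7a-5p (-1.23) were higher in HT-29 and miR-125b-5p (0.85) was not called. Let-7a-5p also has copies on chromosomes 9 and 22, and miR-125b-5p has copies on both chromosomes 11 and 21. Neither value can be assigned to a single cluster. Since miR-99a-5p, miR-99b-5p and miR-100-5p share a seed, their summed counts were higher in HT-29 (-3.46), following the abundant member.

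The share of called members varied between other families, beside 64.5% of all tested miRNAs. None of the 3 miR-183 cluster members and none of the 5 members of the miR-23, miR-24 and miR-27 clusters was called, and miR-27b-3p stood just under the threshold at 0.99. Of 13 miR-17-92 members and paralogs, 11 were not called, and the 2 called, miR-363-3p and miR-18b-5p, had means of 5.11 and 3.47 CPM in Caco-2. MiR-363-3p changed by 6.38, or 7.74 without HT-29 replicate 3, which held its only HT-29 count, and miR-18b-5p fell to 0.58 with no call without Caco-2 replicate 1. In the miR-30 family 3 of 5 were higher in Caco-2, in the miR-26 family both members (1.52 and 1.30), and in the miR-15 and miR-16 family 3 of 6 tested, with miR-424-5p at 48.3 ± 2.8 CPM against 0.657 ± 0.184 CPM. Among these calls, that of miR-30e-5p (1.02) was lost without Caco-2 replicate 2 (0.84), with RLE factors or DESeq2 (0.90 in both) and with library size alone (0.62). That of miR-195-5p (1.09) was lost without Caco-2 replicate 1 (0.98), Caco-2 replicate 2 (1.02, on the FDR) or HT-29 replicate 3 (0.96), with RLE factors (0.91), DESeq2 (0.90) and library size alone (0.63), and with the replicate number as a block (0.9947). The miR-181 family had 2 members higher in Caco-2, 1 in HT-29 and 1 not called. MiR-29c-3p (1.13) was the called member of the 3 in the miR-29 family, miR-148a-3p that of the miR-148 and miR-152 family, and miR-221-3p (-1.03) that of miR-221 and miR-222, which was lost without Caco-2 replicate 1 (-0.99) or HT-29 replicate 1 (-0.77). With library size alone miR-29c-3p (0.68) and miR-26b-5p (0.90) were not called, and miR-29c-3p was 0.99 and not called with RLE factors or DESeq2. When every miRNA with a count was tested, miR-30b-5p (0.99), miR-30c-5p (0.995), miR-30e-5p (0.52), miR-26b-5p (0.80) and miR-181d-5p (0.93) were not called. Nor were miR-29c-3p (0.61), miR-195-5p (0.56) and miR-18b-5p (0.73). In that setting miR-93-5p (-1.24), miR-222-3p (-1.36), miR-29a-3p (-1.21), miR-15b-5p (-1.14) and miR-148b-3p (-1.09) were called higher in HT-29. Large clusters known from other tissues were hardly detected, and 1 of 22 miRNAs of the imprinted cluster at 14q32, 1 of 7 of the miR-506 cluster and 0 of 14 of the primate cluster at 19q13 had enough counts to be tested.

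**Figure D3:**
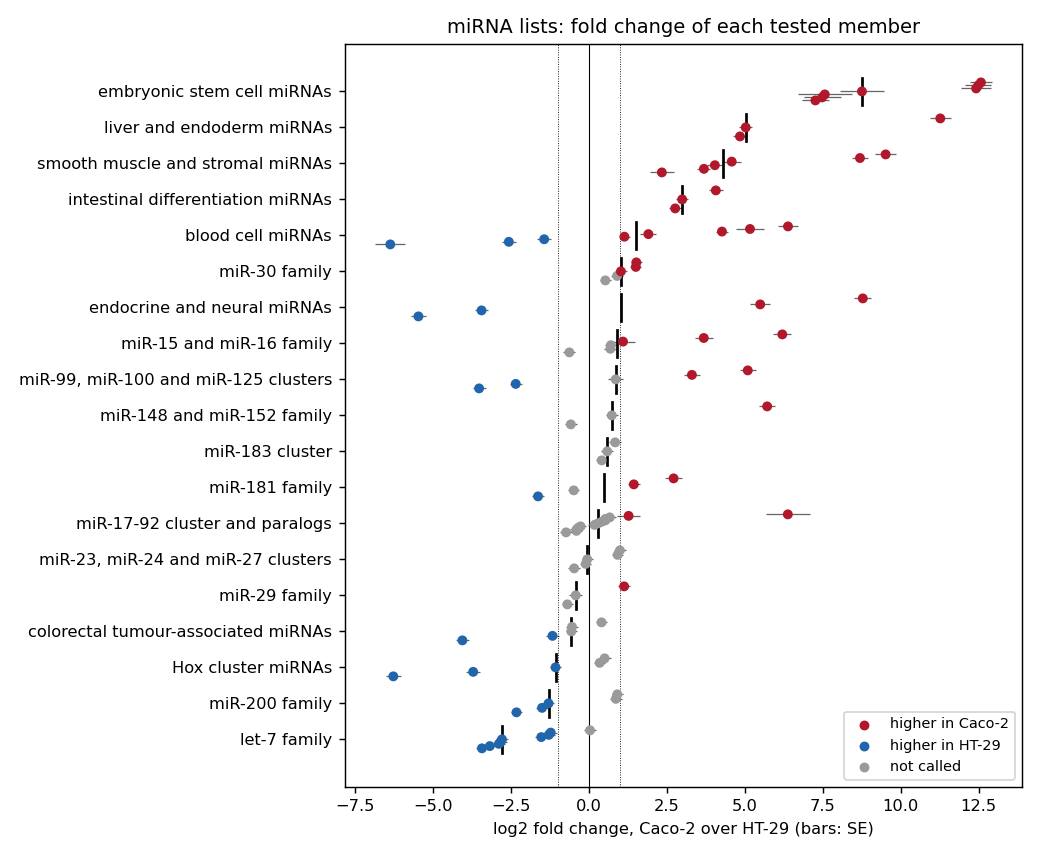
Log2 fold change of Caco-2 over HT-29 for each tested member of the 19 miRNA lists with at least 3 tested members, with SE bars, colours for the edgeR call and a vertical bar at each list's median. Dotted lines mark 2-fold, and the medians run from -2.79 for the let-7 family to 8.76 for the embryonic stem cell miRNAs.

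Hairpins that lie close together are often cut from 1 transcript, so the tested miRNAs were grouped by position, with neighbours within 10 kb on a strand forming a cluster. This grouping was made after the values were known and is a description. It gave 41 clusters, in 15 of which every tested member was called in 1 direction, in 3 members were called in both directions, and in 9 none was called. Among the 15, the clusters of miR-941 and of miR-514a-3p have 1 tested miRNA each, so their members could not differ. Of all tested miRNAs, 64.5% were called. The X chromosome cluster from miR-532 to miR-502, at chrX:50003167-50014670 on the plus strand, had all 13 tested miRNAs higher in Caco-2, with log2 fold changes from 1.42 to 4.36. The miR-424, miR-503 and miR-450 cluster, also on X, had all 5 higher in Caco-2, from 3.68 to 6.20. On the HT-29 side, the chromosome 19 cluster of miR-99b, let-7e and miR-125a had all 6 miRNAs higher in HT-29, from -4.27 to -2.35, and the chromosome 9 cluster of let-7a, let-7f and let-7d also had 6 of 6. A mature miRNA with several copies, such as let-7a-5p, was counted in each of its clusters, because its counts cannot be assigned to 1 copy. The 11 tested products of the miR-17 to miR-92a cluster on chromosome 13 ran from -0.45 to 0.66, with none called.

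**Figure D4:**
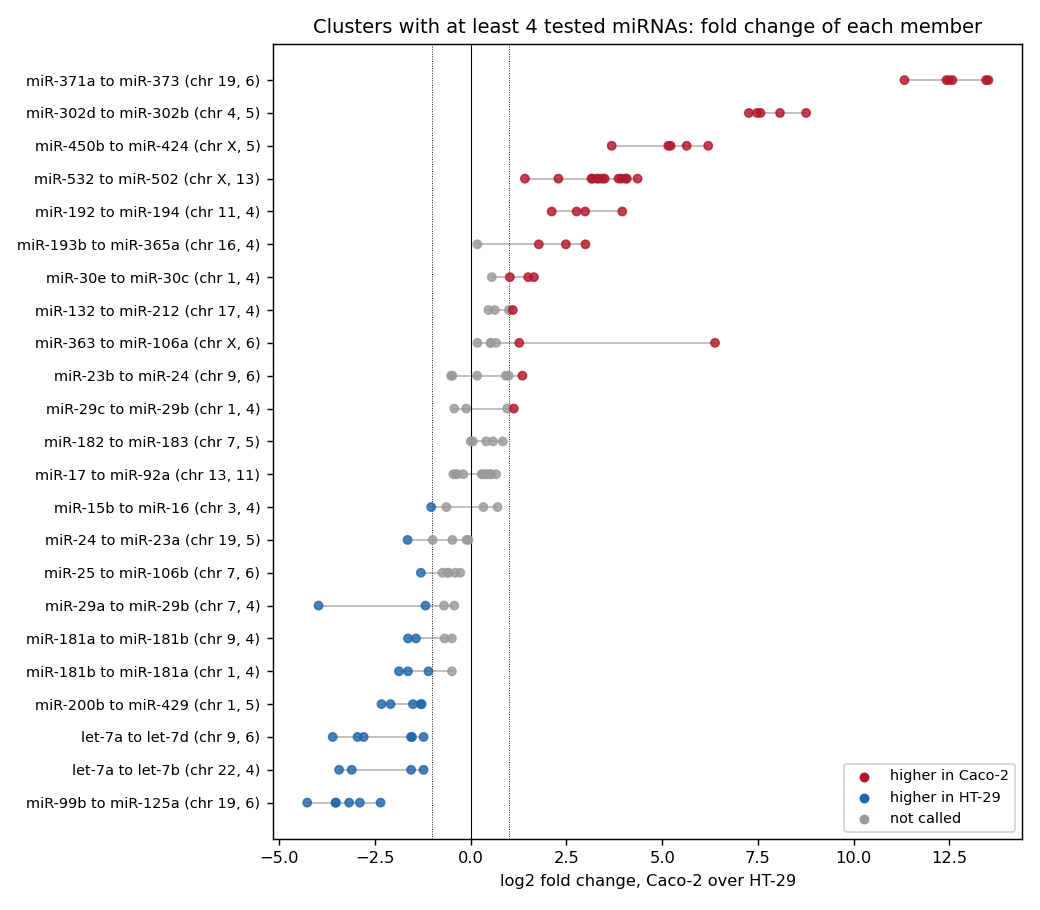
Log2 fold change of Caco-2 over HT-29 for each tested miRNA of the 23 clusters with at least 4 tested members, 1 row per cluster, with chromosome and number of members in the label. Members of 1 cluster mostly lie on the same side of 0, from the miR-371a to miR-373 cluster at the top, at 11.32 to 13.52, to the miR-99b to miR-125a cluster at the bottom.

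Seeds give the view from the targets. Counts were summed over all miRNAs with the same seed for the 2367 miRNAs with a RefSeq sequence, which held 94.2% to 95.0% of the counts in each library. Of 456 seeds tested, 309 (67.8%) were called, 124 (27.2%) higher in Caco-2 and 185 (40.6%) higher in HT-29. This split depended on the scaling and on single libraries, with a median log2 fold change of -0.49 over the seeds. Without HT-29 replicate 2 it was 140 and 144, with 261 of the 309 calls kept. With library size alone it was 111 and 204. The 5 called seeds with the largest rise in Caco-2 were AGUGCCG of miR-371a-3p, CUCAAAU of miR-372-5p, CUCAAAC of miR-371a-5p, AAGUGCU of miR-372-3p, miR-373-3p and the miR-302 members, and GGAGUGU of miR-122-5p. AAGUGCU alone rose from 14.1 ± 12.6 CPM in HT-29 to 68445 ± 13895 CPM in Caco-2 (log2 fold change 12.23 ± 0.39, and 13.55 without HT-29 replicate 2), and 96.5% of its Caco-2 counts were miR-372-3p. The 5 with the largest rise in HT-29 were CAGUUAC of miR-935, UGAACUG of miR-203b-3p, AAAUUCG of miR-10a-3p, ACCCUGU of miR-10a-5p and AACUGGU of miR-582-3p.

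As a share of the matched counts, UGACCUA (miR-192-5p and miR-215-5p) took 31.1% in Caco-2 and 5.62% in HT-29. The let-7 seed GAGGUAG took 3.67% of them in Caco-2 against 13% in HT-29 (log2 fold change -1.58 ± 0.17). The seed AAUACUG of miR-200b-3p, miR-200c-3p and miR-429 took 5.50% and 11.8%. Of 59 seeds with at least 2 tested members, 5 had members called in opposite directions. Among these was ACAUUCA of the miR-181 family, whose summed change of -0.93 was not called.

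Arm usage was compared in 151 hairpins with both arms tested. In 25 of them (16.6%) an arm changed relative to its hairpin by more than 2-fold at an FDR of 0.05, and in each of the 25 the same arm was the major one in both lines. Arms were paired by name, so some of the 25 do not compare arms of a single hairpin. MiR-199a (-1.43) and miR-199b (1.04) were called against 3p arms with the same counts. The 3p reads of miR-365a (-2.73) cannot be told apart from those of miR-365b. The 5p arm of miR-196a comes from MIR196A1 and MIR196A2, and miR-196a-1-3p was counted apart. A change relative to the hairpin falls mostly on the minor arm, since the major arm holds most of the counts. It does not tell which arm moved between the lines. For miR-151a the log2 fold change was -0.18 for the minor 5p arm and -1.92 for the major 3p arm. For miR-27a it was -1.65 for the minor 5p arm and -0.06 for the major 3p arm. The 5p arm of miR-151a made up 7.10%, 4.94% and 5.25% of the hairpin's counts in the Caco-2 libraries, against 2.51%, 1.33% and 2.00% in HT-29 (relative log2 change of the 5p arm 1.68, FDR = 1.29e-05). For miR-27a the 5p arm made up 0.846%, 0.755% and 0.805% of the counts in the Caco-2 libraries, against 1.62%, 3.30% and 2.53% in HT-29 (-1.57). The shares of the groups did not overlap for either hairpin. MiR-23b-5p was likewise relatively lower in Caco-2 (-1.42), on 24, 28 and 8 counts there, and its shares of 0.246%, 0.322% and 0.773% reached into the HT-29 range of 0.729% to 1.06%. Let-7i-3p (1.34) and miR-192-3p (1.19) were relatively higher in Caco-2, each at under 0.2% of its hairpin's counts, and both calls depended on single libraries. Let-7i-3p lost it without Caco-2 replicate 2 (1.37, FDR = 0.0562) or HT-29 replicate 2 (1.01), and miR-192-3p without Caco-2 replicate 1 (0.45) or HT-29 replicate 2 (1.02) and with the replicate number as a block (0.95). Without Caco-2 replicate 1 the number of called hairpins was 16.

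Many miRNAs lie inside longer genes, and 59 listed pairs of a miRNA and its host were compared across the 2 RNA classes. In 53 pairs the miRNA was tested, and in 44 of these the host, 1 of 32 genes, was too. The fold changes had the same sign in 33 of the 44 pairs. In 10 pairs both members were called, 9 of them in the same direction. Of all tested miRNAs 64.5% were called, and of all tested genes 45.2%. IGF2 and MIR194-2HG each entered the 9 with both of their listed miRNAs, so the 9 pairs are not independent. Of these 9, the pair of miR-22-3p rests on MIR22HG at 1.02, which was not called with library size alone (0.99) or without Caco-2 replicate 1 (0.99), HT-29 replicate 1 (0.89) or HT-29 replicate 2 (0.95). Likewise, the pair with MIR222HG rests on miR-221-3p at -1.03. That miRNA was not called without Caco-2 replicate 1 (-0.99) or HT-29 replicate 1 (-0.77). It was also not called at a mean of at least 50 counts (-0.95) or in the fit of all 18 libraries (-0.60). IGF2, the host of miR-483, had 514, 489 and 536 counts in Caco-2, against 1, 0 and 1 in HT-29, beside log2 fold changes of 5.03 and 4.84 for miR-483-3p and miR-483-5p. MIR194-2HG, the transcript of miR-192 and 1 copy of miR-194, was higher in Caco-2 by 2.32 ± 0.10, close to the 2.76 and 2.99 of its miRNAs. MIR31HG was lower in Caco-2 by 6.89 on the log2 scale with 0, 0 and 3 counts there, beside -4.06 for miR-31-5p. Its value was -6.27 without Caco-2 replicate 1 and -10.25 without Caco-2 replicate 3, which held the 3 counts.

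The pair that went opposite ways was miR-342-3p and EVL. The miRNA had 185, 119 and 15 counts in Caco-2, against 1, 2 and 0 in HT-29, a log2 fold change of 8.10 ± 0.44, or 8.82 without HT-29 replicate 2, while EVL was higher in HT-29 at -1.01 ± 0.18, a value at the threshold that was -0.99 under DESeq2, -0.85 without Caco-2 replicate 1, -0.96 without HT-29 replicate 1 and -0.98 without HT-29 replicate 3. HNRNPK, which holds 1 of the copies of miR-7, changed by -0.75 against -5.48 for miR-7-5p. IARS2 was listed for miR-215-5p but spans it on the opposite strand and is no host of it by the annotation, and without this pair 32 of 43 had the same sign. The hosts of miR-99a-5p, miR-100-5p and miR-143-3p were too low to be tested. Over the 43 pairs left, which share hosts and libraries, Pearson's r was 0.619 and Spearman's rho 0.669, given as a description.

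**Figure D5:**
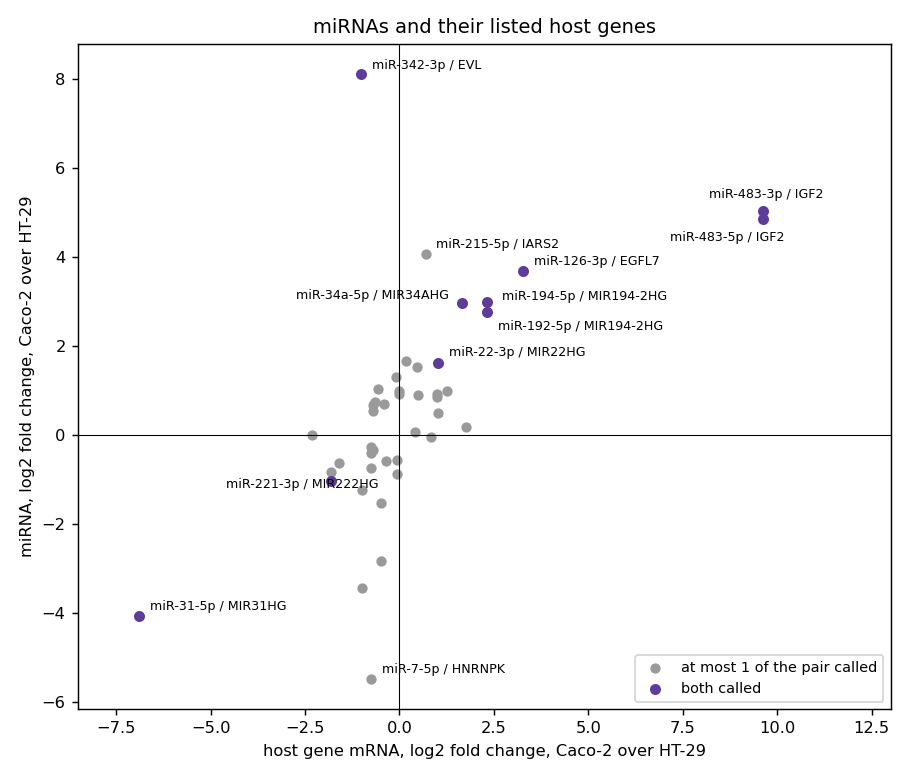
Log2 fold change of Caco-2 over HT-29 for 44 miRNAs (y) against that of the listed host gene (x, including IARS2, which lies on the opposite strand), with the 10 pairs in which both were called in purple and named. The points fall mainly in the lower left and upper right, and miR-342-3p with EVL stands alone at the upper left.

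The same contrast was available in libraries that share no sample with the controls. Under CoCl2, 335 of 544 miRNAs (61.6%) were called, 178 (32.7%) higher in Caco-2 and 157 (28.9%) higher in HT-29. Without the HT-29 CoCl2 library of 34043 counts, 204 were higher in Caco-2 and 213 in HT-29 among 630 tested. With library size alone, the share of the CoCl2 calls that were higher in Caco-2 went from 53.1% to 49%. The larger number on the Caco-2 side under CoCl2 therefore depended on the scaling and on that library. Under OD, 371 of 592 (62.7%) were called, with 219 (37%) higher in Caco-2 and 152 (25.7%) higher in HT-29. That split became 169 and 221 with library size alone. Without the HT-29 OD library of 466975 counts it was 208 and 195 among 631 tested. Of the 195 miRNAs higher in untreated Caco-2, 165 (84.6%) were called the same way under CoCl2, where they were 92.7% of such calls, and 180 (92.3%) under OD, where they were 82.2%. Of the 212 higher in untreated HT-29, 135 (63.7%) recurred under CoCl2, 86% of the calls there, and 142 (67%) under OD, 93.4% of the calls. Not all passed the count filter there, with 185 of the 195 and 152 of the 212 tested under CoCl2 and 186 and 192 under OD. MiR-4521 alone was called in opposite directions, higher in HT-29 without treatment and higher in Caco-2 under OD.

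The leading miRNAs held their differences in the treated libraries. The log2 fold change of miR-192-5p was 2.51 under CoCl2 and 3.02 under OD, that of miR-148a-3p 5.17 and 5.74, that of miR-10a-5p -6.48 and -6.23, and that of miR-7-5p -5.97 and -5.47. MiR-372-3p changed by 10.92 and 12.32. Scaled over all 18 libraries, its level in HT-29 was 4.18 to 21.6 CPM without treatment, 4.15 to 19.2 CPM under OD and 11.3 to 1179 CPM under CoCl2, where 1 library held only 34043 counts in all. In Caco-2 it stayed between 61030 and 113000 CPM in all 9 libraries.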

How the data were processed

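MiRNA and mRNA libraries had been sequenced separately from untreated and treated Caco-2 and HT-29 cells. The authors deposited raw read counts per miRNA and per gene, which were used as they stand. The deposited log2 tables of normalised values were not used, nor were 12 per-sample columns of treated mRNA libraries. The submitters' processing notes name FastQC 0.11.9, cutadapt 2.10, STAR 2.7.5b, Bowtie 1.1.1, edgeR 3.30.3 and GRCh38.p13, and which of them made the miRNA counts, and with which miRNA annotation, is not given in the sources used here.

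Groups came from the labels. Counts were filtered with filterByExpr, scaled by TMM and tested with edgeR 4.0.16 (quasi-likelihood F test, Benjamini-Hochberg adjustment, R 4.3.3, limma 3.58.1), 3 libraries against 3. Called means FDR under 0.05 and an absolute log2 fold change over 1, and positive values are higher in Caco-2. SE is the absolute log2 fold change over the square root of F. CPM use TMM-scaled library sizes. Where a group had no count, the fold was set against 3 counts over that group, and with few counts the pooled ratio has an exact 95% interval. Arms were tested with diffSpliceDGE. Counts of miRNAs with the same bases 2 to 8 were summed for seeds, and the sums were filtered and scaled on their own. Mature sequences and positions are from RefSeq (GRCh38.p14), found for 558 of the 631 tested miRNAs, and gene context is from GENCODE. Host pairs and lists were written by hand. The named miRNAs are the 15 most abundant of each line, the 10 with the largest called change in each direction among those with a mean of at least 50 counts and no overlap between groups, the members of the lists and host pairs, the 5 seeds with the largest called change in each direction and the 5 hairpins with the largest called arm change, both at a mean of at least 50 counts (for hairpins, in the minor arm). The named miRNAs and the lists were chosen with earlier results of these data known, while the libraries were chosen by their labels. The scripts were tested on simulated data. Total counts were 763531 to 13092513 in the untreated miRNA libraries and 12925719 to 22332639 in the mRNA libraries. Alternatives were other scalings (RLE, library size, all 18 libraries), other count filters, DESeq2 1.42.0, a replicate block and leaving out each library.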

Additional observations from a re-analysis of the deposited data

Results flagged for a closer look

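The difference between the lines itself differed between untreated and treated libraries for a few miRNAs, tested as an interaction in an edgeR fit of all 18 miRNA libraries (675 miRNAs, FDR under 0.05 and more than 2-fold). This test was added after the data had been seen, and both contrasts share the untreated libraries. Groups of 3 were not tested for single outlying libraries. Values are the log2 fold change of Caco-2 over HT-29 without treatment minus that under treatment.

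Against CoCl2, 10 miRNAs passed, 16 passed the FDR alone and 78 had an unadjusted p under 0.05. MiR-100-5p had the largest difference, 3.33 (FDR = 1.86e-08), with mean levels of 28.4 CPM in Caco-2 and 2.24 CPM in HT-29 without treatment and 25.4 and 13.1 CPM under CoCl2. The values were 2.17 for miR-193b-5p, 2.04 for miR-6511b-3p, 1.86 for miR-671-5p, 1.17 for miR-671-3p, 1.28 for miR-22-5p and 1.14 for miR-574-5p. For miR-365a-3p and miR-365b-3p, whose reads cannot be told apart, it was 1.31 in both. MiR-92a-1-5p went the other way at -2.39. Without the HT-29 CoCl2 library of 34043 counts, 9 of the 10 passed and miR-574-5p, at 0.95, did not.

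Against OD, 5 miRNAs passed, 7 passed the FDR alone and 78 had an unadjusted p under 0.05. The values were -2.24 for miR-4521, -1.44 for miR-92a-1-5p, -1.33 for miR-30c-1-3p, -1.17 for miR-25-5p and 1.95 for miR-4485-3p. All 5 also passed without the HT-29 OD library of 466975 counts.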

How the results depend on the processing

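The number of called miRNAs (407) depended most on the count filter. With a mean of at least 50 counts it was 240, of which 115 were higher in Caco-2 and 125 in HT-29, as fewer miRNAs were tested, and with every miRNA with a count 364 were higher in HT-29. Leaving out each library in turn gave 397 to 436 called miRNAs and 16 to 24 hairpins with changed arms, against 25. DESeq2 called 403. Calls near 2-fold in the lists moved with the scaling. With library size only miR-18b-5p (0.79) was lost besides those given above, and in the fit of all 18 libraries miR-135b-5p (-0.70), miR-615-3p (-0.65), miR-221-3p (-0.60) and miR-449c-5p (-0.69) were lost, while miR-96-5p (1.28) and miR-182-5p (1.02) were among those that passed. Same-numbered libraries of the lines did not deviate together (correlations -0.046, 0.027 and -0.053), and with a replicate block 406 miRNAs, 310 seeds, 7404 genes, 20 hairpins, 338 miRNAs under CoCl2 and 376 under OD were called. Depth limits Caco-2 replicate 3, where 3 counts are 3.93 CPM.

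The sign turned only for values that were not called, and the cause was not tested. With RLE factors it was -0.081 for let-7g-5p, -0.12 for miR-205-5p and -0.057 for miR-103a-3p, and DESeq2 gave -0.081, -0.12 and -0.057. With library size only, the values were -0.35 for let-7g-5p, -0.43 for miR-205-5p, -0.33 for miR-103a-3p, -0.23 for miR-107, -0.061 for miR-196a-5p, -0.13 for miR-19a-3p, -0.0063 for miR-20a-5p and -0.28 for miR-20b-5p. With every miRNA with a count they were -0.46 for let-7g-5p, -0.50 for miR-205-5p, -0.45 for miR-103a-3p, -0.34 for miR-107, -0.16 for miR-196a-5p, -0.23 for miR-19a-3p, -0.11 for miR-20a-5p, -0.35 for miR-20b-5p, -0.0091 for miR-10b-5p, -0.11 for miR-183-5p and -0.030 for miR-340-5p. With all 18 libraries they were 0.18 for miR-106b-5p, 0.41 for miR-149-5p, 0.087 for miR-17-5p, 0.076 for miR-18a-5p, 0.35 for miR-23a-3p, 0.027 for miR-25-3p, 0.38 for miR-27a-3p and 0.035 for miR-29b-3p, and miR-27a-3p was 0.014 at a mean of 50 counts. Leaving out 1 library gave -0.23 to 0.26 for let-7g-5p, -0.20 to 0.24 for miR-205-5p, -0.049 to 0.20 for miR-103a-3p, -0.28 to 0.10 for miR-149-5p, -0.31 to 0.0415 for miR-23a-3p and -0.17 to 0.10 for miR-27a-3p. Among genes, AOPEP was 0.020 with DESeq2, 0.013 with the replicate block and -0.10 to 0.11 without 1 library, GABRE was -0.13 to 0.013 and TNRC6C -0.18 to 0.0055.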
